A study of Mus musculus with 12 samples.

Results

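CD8 T cells of Ikaros-Zn4 mutant mice and of wild-type (WT) mice were compared after 24 h of stimulation through the T cell receptor. The comparison uses 4 of the 12 libraries of the series, taken by their labelled genotype and time, and covers every gene of the deposited table that passed a filter on low values, 12726 of 12885 gene symbols. The Zn4 cells came from mice homozygous for the Ikaros-Zn4 allele and the WT cells from WT mice, both C57Bl/6 females of 6 weeks per the labels. In both groups naive CD8 T cells of the spleen, selected by surface markers that include low or absent CD44, were enriched by negative selection and sorted, then stimulated for 24 h by plate-bound anti-CD3 and anti-CD28. Each group has 2 libraries, and the other 8 libraries are the same genotypes at 0 h (unstimulated) and at 12 h. The labels do not say whether the 2 libraries of a group are separate animals, so the p-values measure the spread between libraries, which may be technical. The labels name the mutant allele and do not describe what it changes in the protein. Because the cells were mutant before the sort and the culture, differences present at 0 h are given beside the 24 h values where they bear on them.

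Ikaros, the product of Ikzf1, is a zinc finger protein of lymphocytes that binds DNA and works with the NuRD chromatin remodelling complex, often in the repression of target genes. A naive CD8 T cell that receives signals through CD3 and CD28 grows, divides, makes cytokines and becomes a killer cell that carries granzymes. Interleukin-2 and other cytokines then act back on the cell through JAK kinases and the transcription factor STAT5.

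The libraries of 24 h held 25601136 and 24986738 reads in Zn4 and 24263907 and 28341272 reads in WT, as worked out from the steps of the RPKM values. RPKM is the number of reads scaled by gene length and library size, so it compares levels per length. Over the tested genes the 2 Zn4 libraries differed from each other more (SD of the log2 difference 0.301) than the 2 WT libraries did (0.173). Ikzf1 was abundant, with 136 and 139 RPKM in Zn4 cells and 115 and 117 RPKM in WT cells, a difference that did not pass the test (log2 difference 0.25 ± 0.10, SE, limma adjusted p = 0.14). That value sums the whole gene and does not check the altered part of the transcript. Summed over 7 CD8 T cell markers the levels were 1314 and 1518 RPKM in Zn4 cells and 2040 and 1973 RPKM in WT cells, and 4 of the 7, Cd8b1, Cd3d, Cd3e and Cd3g, fell. The Cd8b1 call was lost without Zn4 replicate 1, WT replicate 1 or WT replicate 2 (limma adjusted p = 0.126 to 0.236). Of 9 B cell markers only Cd79b was tested (1.56 and 1.73 RPKM in Zn4, 6.62 and 6.53 RPKM in WT). Of 12 myeloid markers 2 were tested, Itgam at a mean of 0.0156 RPKM in Zn4 and 0.0770 RPKM in WT and Cst3, which many cell types express and which was called higher, with 31.5 and 28.5 RPKM in Zn4 and 23.1 and 22.9 RPKM in WT (0.37 ± 0.11, limma adjusted p = 0.0436, a call lost when any 1 of the 4 libraries was left out, with adjusted p of 0.0504 to 0.235). Cd4 averaged 0.212 RPKM in Zn4 and 0.137 RPKM in WT. Of 7 natural killer and gamma-delta T cell markers 2 were tested, summing to 1.94 and 1.11 RPKM in Zn4 and 0.489 and 1.05 RPKM in WT, and of 5 progenitor markers 1 was tested, Kit, called higher at 1.74 and 1.01 RPKM in Zn4 and 0.445 and 0.278 RPKM in WT, a call lost without Zn4 replicate 1 (limma adjusted p = 0.0866) or WT replicate 2 (0.0940). Of 6 erythroid and megakaryocyte markers 1 was tested, Itga2b, at a mean of 0.478 RPKM in Zn4 and 0.347 RPKM in WT, and of 21 class II and B-lineage genes 5 were tested and 2 fell, Cd79b and H2-Oa. The other markers of these lists, among them Lyz2, Ncr1 and Hbb-bs, are not among the tested genes, and the part of other cells in the results was not tested. The Y-linked transcripts that were measured summed to at most 0.00272 RPKM at 24 h, as in libraries of females, whereas 3 of the 4 libraries of 12 h held 38.9 RPKM (WT replicate 1), 43.5 RPKM (Zn4 replicate 1) and 21.0 RPKM (Zn4 replicate 2), against their label. The 12 h libraries enter the 24 h comparison only through the filter on low values and the shared estimate of the spread. In a fit without them, over the same tested genes, 1825 genes were called at 24 h, against 2464 with them.

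A gene is called when its Benjamini-Hochberg adjusted p in limma, over all 12726 genes, is under 0.05. Changes are differences of log2(RPKM + 1) between Zn4 and WT, given ± SE, and this scale understates the change of a gene near or below 1 RPKM in either group. At 24 h 2464 genes (19.4%) were called, 1196 of them higher in Zn4 cells (9.4%) and 1268 lower (9.96%). The median change over all tested genes was -0.02. In 100% of the called genes, of either direction, both Zn4 libraries lay on the called side of both WT libraries. Where groups of called genes are described below as separate, this therefore adds no support to the call. On this scale rises reached further than falls. Of the called genes 431 were at least 2-fold higher (3.39%) and 218 at least 2-fold lower (1.71%), together 5.1%. On the same scale 119 were at least 4-fold higher and 16 lower, and 41 were at least 8-fold higher and 0 lower. Falls to below 1 RPKM are understated in these counts. BC094916, with 0.141 and 0.389 RPKM in Zn4 and 8.18 and 8.45 RPKM in WT, changed by -2.89 here and reached -5.12 in an alternative fit. Fewer genes were called without WT replicate 1 (1061), WT replicate 2 (1075) or Zn4 replicate 1 (1234), and no gene was called in opposite directions by these fits. In bulk RNA a lower level can come from fewer cells of a type or from less RNA per cell, and these cannot be told apart here.

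**Figure D1:**
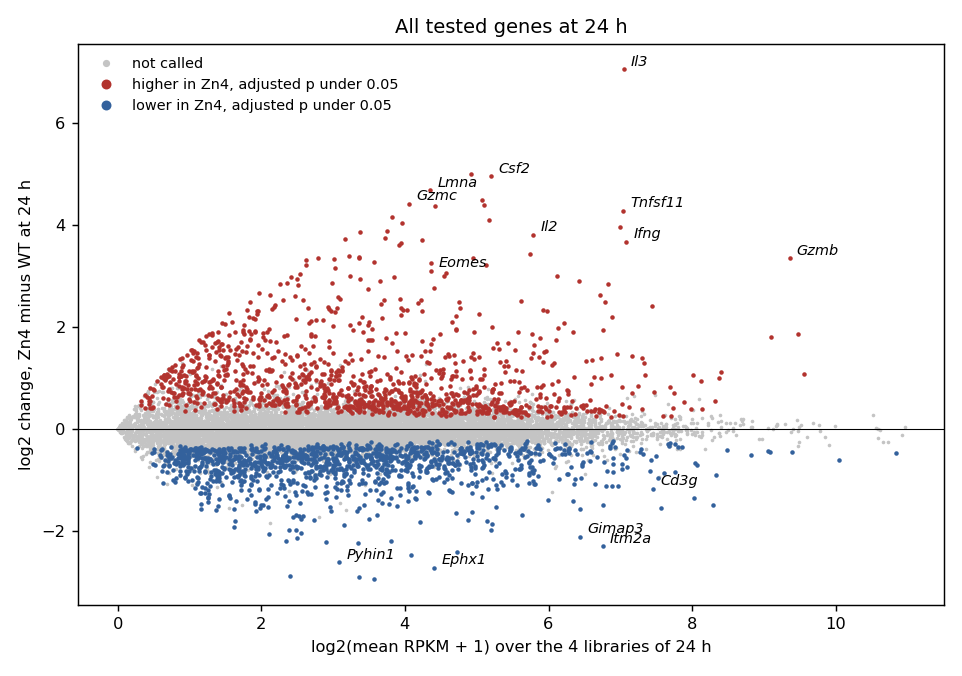
Change of every tested gene at 24 h (vertical axis, log2 of Zn4 minus WT on the log2(RPKM + 1) scale) against its mean level over the 4 libraries (horizontal axis, log2(mean RPKM + 1)). Red points are genes called higher in Zn4 cells, blue points genes called lower and grey points genes not called. Il3 is the highest point, at 7.05, and the falls end at -2.95.

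The most prominent difference at 24 h was in cytokine genes. Il3, which encodes interleukin-3, a growth factor of blood cell progenitors, had 283 and 239.7 RPKM in Zn4 cells, against 1.11 and 0.841 RPKM in WT cells. These levels rest on 4563 and 3767 reads in Zn4 and on 17 and 15 reads in WT. The groups were far apart, and the ratio of the mean RPKM values was 268 (log2 change 7.05 ± 0.20, limma adjusted p = 3.8e-07). Csf2, which encodes the growth factor GM-CSF of myeloid cells, had 81.9 and 58.6 RPKM in Zn4 cells and 1.29 and 1.23 RPKM in WT cells (4.96 ± 0.28, limma adjusted p = 1.2e-05). Il3 and Csf2 are neighbours on chromosome 11, Il3 at 54265303 to 54267277 and Csf2 at 54247271 to 54249667 in GRCm38 (GENCODE M21), 15.63 kb apart on the minus strand. Neither differed at 0 h (-0.05 ± 0.20 for Il3 and -0.07 ± 0.28 for Csf2, both at or under 0.0651 RPKM on average in each genotype).

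The 250 bases before the RefSeq start (GRCm38.p6) are shown for these neighbours and for Gzmb and Plaur, described further on, because these genes are among those that the results turn on and lie on 3 chromosomes. Capitals mark a match to TGGGAA on either strand, a core that Ikaros binds, or to TGANTCA, an AP-1 site that reads the same on both strands. The motifs do not overlap in these windows. Il3 is at chr11:54267280-54267529, Csf2 at chr11:54249900-54250149 and Gzmb at chr14:56262335-56262584, all on the minus strand, and Plaur at chr7:24462233-24462482 on the plus strand.
Il3: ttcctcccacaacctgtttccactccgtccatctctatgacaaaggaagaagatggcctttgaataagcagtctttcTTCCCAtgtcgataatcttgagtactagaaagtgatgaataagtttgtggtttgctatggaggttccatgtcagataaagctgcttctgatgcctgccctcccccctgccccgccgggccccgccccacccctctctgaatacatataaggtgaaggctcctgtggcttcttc
Csf2: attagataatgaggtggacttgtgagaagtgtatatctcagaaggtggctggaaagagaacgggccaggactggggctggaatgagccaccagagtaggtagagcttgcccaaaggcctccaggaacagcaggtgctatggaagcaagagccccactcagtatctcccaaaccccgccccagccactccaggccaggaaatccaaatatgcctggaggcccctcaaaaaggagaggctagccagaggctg
Gzmb: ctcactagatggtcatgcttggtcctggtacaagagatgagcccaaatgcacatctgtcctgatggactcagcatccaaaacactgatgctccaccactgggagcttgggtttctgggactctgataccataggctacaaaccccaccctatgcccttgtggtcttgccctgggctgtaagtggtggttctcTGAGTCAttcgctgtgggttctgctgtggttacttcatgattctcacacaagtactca
Plaur: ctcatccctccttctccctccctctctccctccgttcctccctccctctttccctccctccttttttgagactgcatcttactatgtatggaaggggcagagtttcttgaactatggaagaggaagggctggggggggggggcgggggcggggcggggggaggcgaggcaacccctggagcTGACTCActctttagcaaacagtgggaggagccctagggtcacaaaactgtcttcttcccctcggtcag
Il3 has TTCCCA, the other strand of TGGGAA, from position -173, Csf2 has neither motif in this window, Gzmb has a TGANTCA from -58 and Plaur has one from -69, counted from the start. For Csf2 and Gzmb the RefSeq start lies upstream of the GENCODE start. The bases between the starts were not searched, so the result for Csf2 holds for the RefSeq window only. TGGGAA is in 21.6% of the 32851 promoter windows in the RefSeq table and TGANTCA in 6.75%. Among the 15 genes with the largest rises, 14 matched the table with 18 windows, of which 2 (11.1%, in Cacnb3 and Il3) hold TGGGAA and 2 (11.1%, in Ifitm3 and Plaur) hold TGANTCA. Of the 15 largest falls 6 genes matched with 7 windows, and 0 of these hold either motif. A match describes the letters only.

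Other cytokines rose as well. Il2, the main growth factor of activated T cells, had 116 and 88.6 RPKM in Zn4 cells and 6.05 and 6.54 RPKM in WT cells (log2 change 3.81 ± 0.20). Ifng, the interferon that activates macrophages, had 224 and 278 RPKM in Zn4 cells and 18.7 and 18.5 RPKM in WT cells (3.67 ± 0.20). Lta, a lymphotoxin of the TNF family, had 173 and 214 RPKM in Zn4 cells and 41.0 and 42.0 RPKM in WT cells (2.19 ± 0.13). For each of these the groups did not overlap (32.4% of all genes had both Zn4 libraries above both WT libraries, and 36.3% below), and the limma adjusted p was at most 1.7e-05. Of the 15 tested genes in a list of secreted cytokines 10 rose and 2 fell, with a median change of 1.79. The other risers were Il1a (2.82), Lif (2.33), Tnf (1.79), Osm (1.49) and Vegfa (1.41), and the genes that fell were Il16 (-1.30) and Ltb (-0.86). The fall of Ltb was lost without Zn4 replicate 1, WT replicate 1 or WT replicate 2 (limma adjusted p = 0.143 to 0.261), and the rise of Tnf without WT replicate 1 (0.0665). At 0 h 0 of the 15 were called by limma (over all genes 3.76% were higher and 1.96% lower), and their median difference was 0.02.

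**Figure D2:**
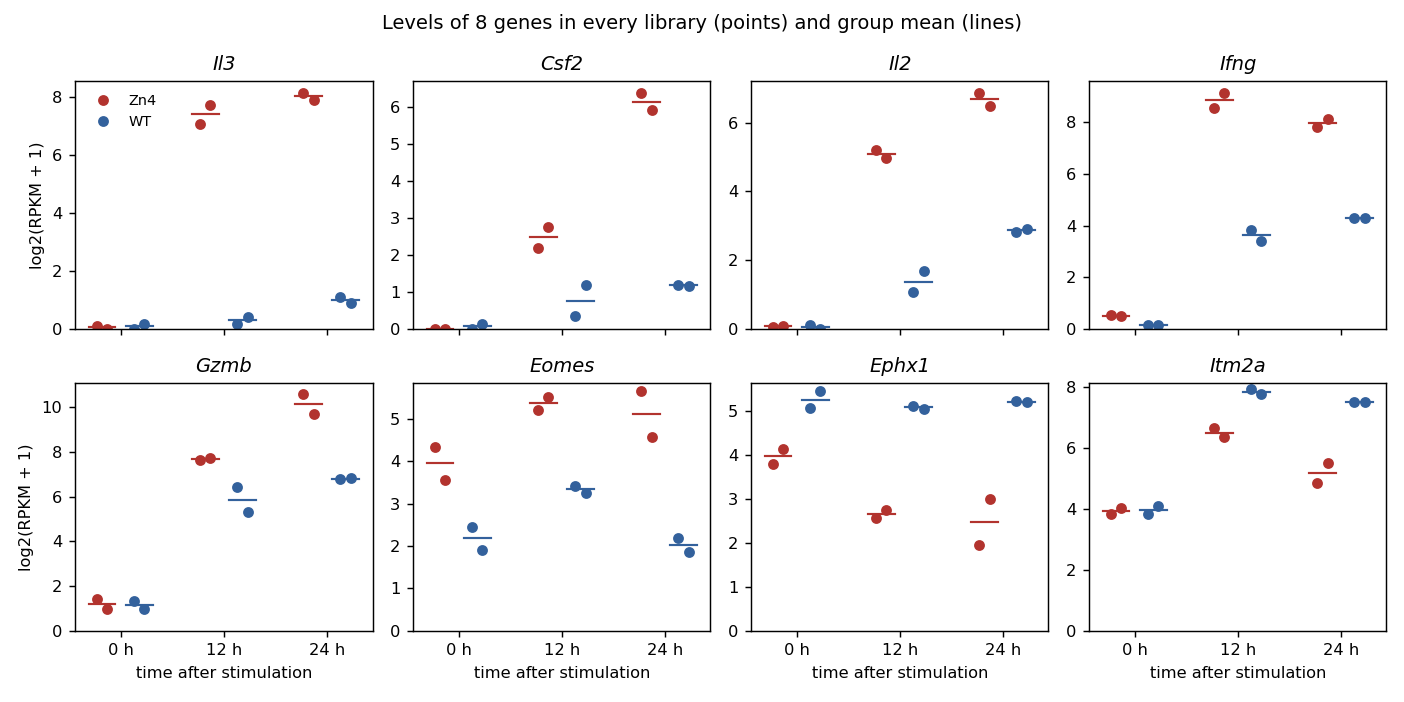
Levels of 8 genes on the log2(RPKM + 1) scale (vertical axes, each starting at 0) at 0, 12 and 24 h (horizontal axes). Each point is a library, red for Zn4 and blue for WT, and each line is a group mean. At 24 h the Zn4 points of Il3, Csf2, Il2, Ifng, Gzmb and Eomes all lie above the WT points, and those of Ephx1 and Itm2a below them.

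Chemokine genes rose for 5 of 9 tested members and fell for 0, with a median of 1.08. Ccl1, the ligand of the receptor CCR8, had 8.80 and 26.9 RPKM in Zn4 cells and 0.731 and 0.521 RPKM in WT cells (3.35 ± 0.42, limma adjusted p = 7.1e-04). Ccl9, a CC chemokine that attracts myeloid cells, had 96.4 and 112 RPKM in Zn4 cells and 21.6 and 18.6 RPKM in WT cells (2.32 ± 0.36, limma adjusted p = 0.0023). The Zn4 libraries lay above the WT libraries for both, and for Ccl1 replicate 2 was the higher Zn4 library. Ccl3, a chemokine of inflammation, had 949 and 1295 RPKM in Zn4 cells and 282 and 327 RPKM in WT cells, and its call was lost without WT replicate 1 (limma adjusted p = 0.0636), when 3 chemokine genes were called. Cxcl10, a target of interferon, did not pass the test (0.08).

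Some genes of the killing machinery of T cells rose and others did not pass the test. Gzmb, the main granzyme of mouse cytotoxic T cells, had 1561 and 836 RPKM in Zn4 cells and 109 and 114 RPKM in WT cells (3.35 ± 0.36, limma adjusted p = 3.3e-04). Gzmc, a related protease whose gene lies 24.18 kb from Gzmb on chromosome 14, had 39.9 and 21.7 RPKM in Zn4 cells and 0.397 and 0.453 RPKM in WT cells (4.42 ± 0.53, limma adjusted p = 5.3e-04). In both genes replicate 1 of Zn4 was the higher library and neither Zn4 library came near the WT range. Granzyme genes are alike in sequence, so reads could have been split between them in the authors' counting. Fasl, the death ligand, had 19.2 and 20.3 RPKM in Zn4 cells and 5.39 and 4.69 RPKM in WT cells (1.78 ± 0.11, limma adjusted p = 1.6e-05). Prf1, which encodes the pore protein perforin, changed by 0.27 (limma adjusted p = 0.63). Gzma averaged 0.0228 RPKM in Zn4 cells and 0.0402 RPKM in WT cells, too low for its change to be read on this scale. Of 26 tested cytotoxic genes 9 rose (8 without the 12 h libraries and 7 with only the 24 h libraries) and 3 fell. Their median was 0.25, and 0.07 to 0.23 when 1 of the 4 libraries was left out. Those that fell were Klrd1 (-1.22), a receptor subunit that pairs with NKG2 proteins, Ctsw (-0.90), a cathepsin, and Unc13d (-0.43), which acts in granule release. The Unc13d call was lost when any 1 of the 4 libraries was left out.

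Transcription factors of effector cells rose for 16 of 29 tested members and fell for 1, with a median of 0.73. Eomes, a T-box factor of effector and memory CD8 T cells, had 49.4 and 23.0 RPKM in Zn4 cells and 3.58 and 2.60 RPKM in WT cells (3.10 ± 0.36, limma adjusted p = 4.3e-04). Batf3, an AP-1 family factor, had 18.2 and 13.8 RPKM in Zn4 cells and 0.521 and 0.694 RPKM in WT cells (3.39 ± 0.25, limma adjusted p = 3.8e-05). Zbtb32, a zinc finger repressor, had 176 and 126 RPKM in Zn4 cells and 21.8 and 16.6 RPKM in WT cells (2.90 ± 0.21, limma adjusted p = 3.9e-05). Bhlhe40, a regulator of cytokine genes in T cells, had 246 and 117 RPKM in Zn4 cells and 26.3 and 26.9 RPKM in WT cells (2.63 ± 0.37, limma adjusted p = 0.0013). The groups were separate for all 4. Tbx21, the T-box relative of Eomes, changed by -0.15 (limma adjusted p = 0.82), and Irf4 by 0.37 (0.55), and neither passed the test. Prdm1 averaged 0.0863 RPKM in Zn4 cells and 0.0107 RPKM in WT cells, too low for its change to be read. Tox was the 1 gene that fell (-1.54). The rises numbered 10 without WT replicate 1 and 10 without WT replicate 2, and 2 genes fell without either Zn4 library in turn. At 0 h 9 of the 29 were already higher (3.76% of all genes), with a median of 0.60.

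Feedback genes and targets of STAT5 rose for 13 of 20 tested members and fell for 0, with a median of 1.00. The risers numbered 12 without the 12 h libraries, and 12 with only the 24 h libraries, where 1 member fell. When 1 of the 4 libraries was left out, the median of this list was 0.91 to 1.10. At 0 h 4 members were higher (3.76% of all genes), with a median of 0.20. Cish, a feedback inhibitor of cytokine receptors, had 49.9 and 40.2 RPKM in Zn4 cells and 7.15 and 7.07 RPKM in WT cells (2.50 ± 0.17, limma adjusted p = 2.6e-05). Socs2, of the same inhibitor family, had 3.77 and 4.77 RPKM in Zn4 cells and 0.424 and 0.392 RPKM in WT cells (1.90 ± 0.12, limma adjusted p = 1.7e-05). Pim1, a survival kinase, had 152 and 88.9 RPKM in Zn4 cells and 27.6 and 25.7 RPKM in WT cells (2.08 ± 0.21, limma adjusted p = 2.5e-04). In all 3 the Zn4 libraries stood clear of WT, and Gzmb and Bcl2l1 are counted in this list too. Cytokine receptor genes moved in both directions, with 8 of 25 higher and 3 lower and a median of 0.30. Il10ra, the interleukin-10 receptor chain, had 9.29 and 6.50 RPKM in Zn4 cells and 2.09 and 1.63 RPKM in WT cells (1.62 ± 0.20), and Il18r1, an interleukin-18 receptor chain, had 3.59 and 6.38 RPKM in Zn4 cells and 1.42 and 1.77 RPKM in WT cells (1.17 ± 0.19). The receptors that fell were Il27ra (-0.75), Il6st (-0.58) and Il2rg (-0.49). Without Zn4 replicate 1 the receptors called were 5 higher and 1 lower, and without WT replicate 1 or WT replicate 2 they were 4 higher and 1 lower. The calls of Il6st and Il2rg were lost without any of these 3 libraries in turn, and that of Il6st also without Zn4 replicate 2 (limma adjusted p = 0.0743 to 0.235 for Il6st and 0.0524 to 0.0750 for Il2rg).

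Genes of the TNF superfamily moved in both directions. Tnfsf11, which encodes RANKL, the ligand that drives osteoclast formation, had 332 and 166 RPKM in Zn4 cells and 11.5 and 10.9 RPKM in WT cells (4.27 ± 0.26, limma adjusted p = 1.7e-05). Cd70, the ligand of CD27, had 20.1 and 6.32 RPKM in Zn4 cells and 0.685 and 0.712 RPKM in WT cells (2.87 ± 0.37, limma adjusted p = 7.9e-04). Tnfsf9, the 4-1BB ligand, had 24.2 and 11.3 RPKM in Zn4 cells and 3.52 and 3.53 RPKM in WT cells (1.96 ± 0.32, limma adjusted p = 0.0028). Replicate 1 was the higher Zn4 library in all 3. In the whole list 8 of 25 genes rose and 4 fell (median 0.41), and those that fell were Tnfrsf14 (-0.93), Ltb (-0.86), Cd27 (-0.75) and Tnfrsf26 (-0.67). Only the fall of Cd27 was called without Zn4 replicate 1, WT replicate 1 or WT replicate 2 in turn, where the limma adjusted p was 0.143 to 0.261 for Ltb and 0.0670 to 0.159 for Tnfrsf26, and Tnfrsf14 was not called without any 1 of the 4 libraries (0.0650 to 0.203).

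Receptors for homing and adhesion also moved both ways, with 10 of 28 higher and 5 lower (median 0.19). Plaur, the urokinase receptor, had 96.8 and 31.1 RPKM in Zn4 cells and 1.15 and 1.87 RPKM in WT cells (4.49 ± 0.41, limma adjusted p = 1.3e-04). Ccr8, the receptor for the Ccl1 product, had 16.3 and 11.04 RPKM in Zn4 cells and 1.78 and 1.19 RPKM in WT cells (2.55 ± 0.24, limma adjusted p = 1.6e-04). Cxcr3, a receptor of effector T cells for interferon-induced chemokines, had 15.1 and 17.7 RPKM in Zn4 cells and 2.57 and 3.02 RPKM in WT cells (2.19 ± 0.24, limma adjusted p = 3.5e-04). No Zn4 library overlapped the WT libraries in these genes. Ccr8 and Cxcr3 were also higher in Zn4 cells at 0 h, by 2.19 and 2.93. The genes that fell were Itgae (-1.45), the integrin chain that binds E-cadherin, Cxcr6 (-1.30), Itgb7 (-1.11), Itgal (-0.83) and Itgb2 (-0.47). Without WT replicate 2 the rises numbered 6, and without Zn4 replicate 1 or WT replicate 1 the falls numbered 3. Itgae lost its call without Zn4 replicate 1 (limma adjusted p = 0.0654) or WT replicate 1 (0.0585), and Itgb7 without those or WT replicate 2 (0.0831 to 0.128).

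Genes of 2 further activation groups rose in part. Of 20 early activation markers 9 rose and 1 fell (median 0.57), the risers being led by Fosb, an AP-1 subunit, with 26.5 and 8.80 RPKM in Zn4 cells and 1.37 and 0.950 RPKM in WT cells (2.93 ± 0.42, limma adjusted p = 0.0014). Jun, its AP-1 partner, had 57.8 and 27.4 RPKM in Zn4 cells and 8.43 and 7.30 RPKM in WT cells (2.21 ± 0.38, limma adjusted p = 0.0037). In both, Zn4 replicate 1 was the higher library and replicate 2 was still above WT. The classical surface marker Cd69 (-0.19), the transferrin receptor gene Tfrc (-0.23) and Myc (0.27) did not pass the test, and Icos, a costimulatory receptor, fell (-1.07). The risers numbered 5 without Zn4 replicate 1, WT replicate 1 or WT replicate 2, and 2 genes fell without Zn4 replicate 2. Of 12 feedback genes of the ERK pathway 5 rose and 1 fell (median 0.55). Dusp5, a nuclear ERK phosphatase, had 87.9 and 60.3 RPKM in Zn4 cells and 18.6 and 19.1 RPKM in WT cells (1.89 ± 0.19, limma adjusted p = 2.2e-04), while Spry4 fell (-0.58). These risers numbered 3 without Zn4 replicate 1, 2 without WT replicate 1 and 3 without WT replicate 2, and the Spry4 call was lost without WT replicate 2 (limma adjusted p = 0.0688).

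Genes for filaments, annexins and S100 proteins rose for 10 of 19 tested members and fell for 0 (median 0.94). Lmna, which encodes the nuclear lamins A and C, had 60.02 and 17.2 RPKM in Zn4 cells and 0.300 and 0.299 RPKM in WT cells (4.68 ± 0.48, limma adjusted p = 2.5e-04). Lgals3, the gene of galectin-3, had 81.3 and 53.5 RPKM in Zn4 cells and 3.17 and 2.72 RPKM in WT cells (4.09 ± 0.44, limma adjusted p = 3.1e-04). Anxa2, a membrane-binding annexin, had 96.1 and 29.9 RPKM in Zn4 cells and 4.74 and 5.05 RPKM in WT cells (3.22 ± 0.42, limma adjusted p = 8.1e-04). The WT libraries agreed closely while Zn4 replicate 1 was the higher Zn4 library in all 3 genes. Vim (2.50), Lgals1 (2.40), S100a4 (2.20) and Ahnak (2.52), which encode vimentin, galectin-1, an S100 protein and a large scaffold protein, were among the others that rose, and 2 genes of the list fell without Zn4 replicate 2. At 12 h 2 members of the list were higher and 5 lower (4.85% and 8.28% of all genes), with a median of -0.16, and 6 of the 19 had a 24 h difference above their 12 h difference by the interaction test (0.652% of all genes). That comparison rests on the 12 h libraries with Y-linked transcripts, and the 6 became 0 with a pseudocount of 0.1, 2 with a replicate block, 9 with the block by time, 4 with quantile normalization, 1 with limma-voom or with only the libraries of both times, 0 to 2 when a library of 12 h was left out, 1 without either WT library of 24 h and 12 without Zn4 replicate 2 of 24 h.

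**Figure D3:**
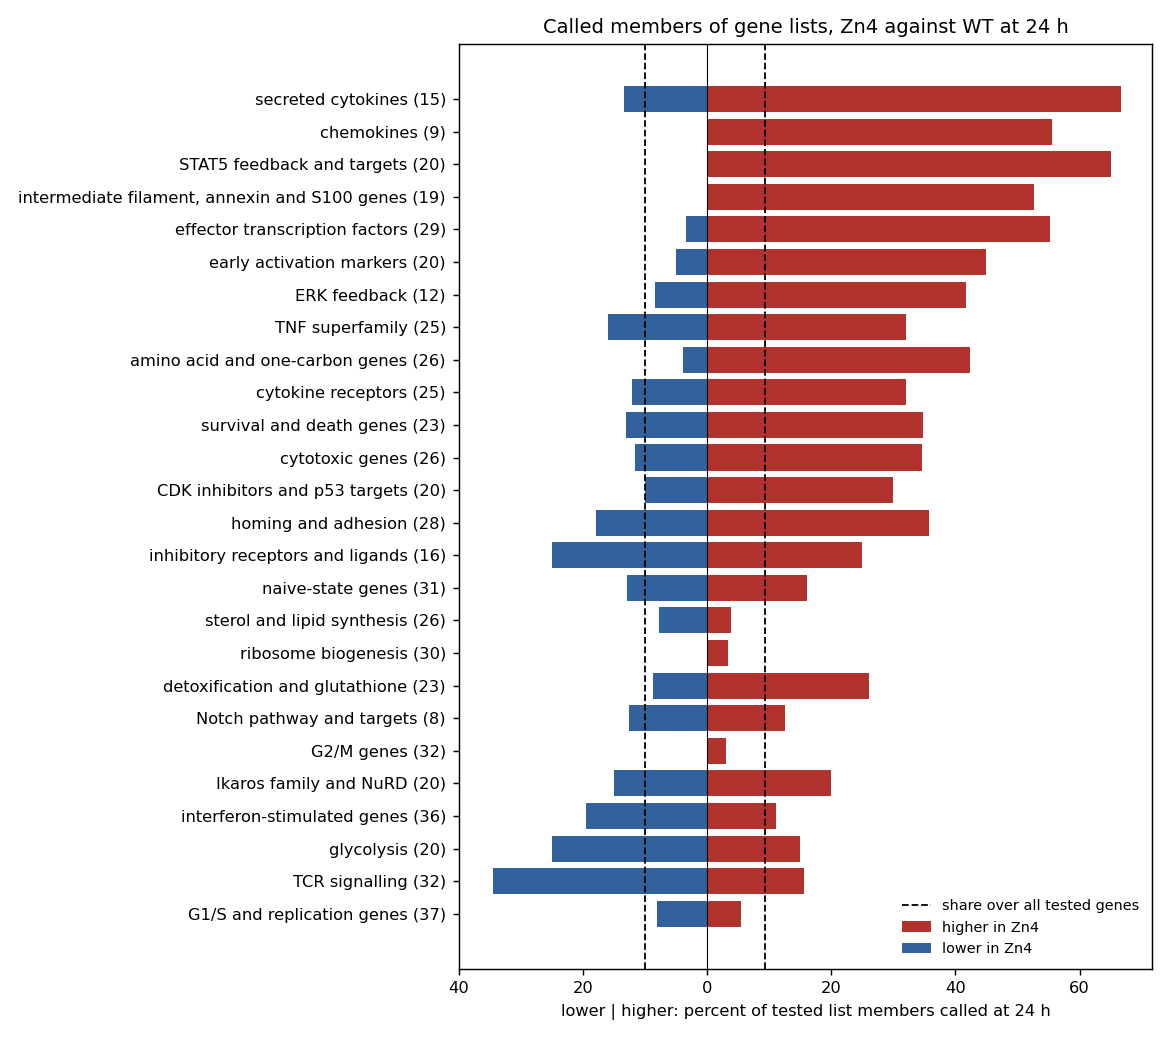
Share of the tested members of each gene list (number in brackets) that were called at 24 h, lower in Zn4 cells to the left of 0 and higher to the right, in percent. Dashed lines are the shares over all tested genes, 9.96% lower and 9.4% higher. Lists are ordered by median change, from secreted cytokines at the top, and only lists with at least 8 tested members are drawn.

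Among metabolic genes the amino acid and one-carbon list stood at 11 of 26 higher and 1 lower (median 0.36). Cth, which makes cysteine from cystathionine, had 12.6 and 18.8 RPKM in Zn4 cells and 1.17 and 0.967 RPKM in WT cells (2.99 ± 0.20, limma adjusted p = 2.2e-05). Asns, asparagine synthetase, had 17.8 and 13.3 RPKM in Zn4 cells and 3.32 and 2.50 RPKM in WT cells (2.08 ± 0.17, limma adjusted p = 8.3e-05). Both are targets of the stress factor ATF4, as are Trib3 (2.37) and Chac1 (2.16), which rose too, and the WT and Zn4 ranges were separate in all of them. The single fall, of Mthfd1l (-0.45), was lost without Zn4 replicate 1, WT replicate 1 or WT replicate 2, and 4 genes fell without Zn4 replicate 2. Of 20 glycolysis genes 3 were higher and 5 lower (median -0.15). Pfkm, the muscle phosphofructokinase, had 1.98 and 2.65 RPKM in Zn4 cells and 6.70 and 6.79 RPKM in WT cells (-1.23 ± 0.16), and Pdk1, a pyruvate dehydrogenase kinase, had 4.19 and 5.33 RPKM in Zn4 cells and 11.2 and 11.8 RPKM in WT cells (-1.13 ± 0.14). Without WT replicate 1 these counts were 1 and 3, and without WT replicate 2 they were 2 and 3. In the detoxification and glutathione list 6 of 23 rose, led by Srxn1, which repairs oxidized peroxiredoxins (2.54 ± 0.17), and 2 fell, and without WT replicate 1 the rises numbered 3. Sterol and lipid synthesis had 1 of 26 higher and 2 lower (median 0.07) and ribosome biogenesis had 1 of 30 higher and 0 lower (median 0.05). These 2 rises were not called without Zn4 replicate 1, WT replicate 1 or WT replicate 2, that of ribosome biogenesis not without Zn4 replicate 2 either, and the sterol falls numbered 1 without any of the 3.

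Cell division genes were set beside the shares over all tested genes, 9.4% higher and 9.96% lower. Of 37 G1/S and replication genes 2 rose and 3 fell with a median of -0.20, not far from those shares. Of 32 G2/M genes 1 rose and 0 fell with a median of 0.01. Summed over the G2/M list the levels were 463 and 660.3 RPKM in Zn4 cells and 509 and 601 RPKM in WT cells, so the Zn4 range spanned the WT range. Mki67, the proliferation marker, changed by 0.06 (limma adjusted p = 0.85). Without Zn4 replicate 1, WT replicate 1 or WT replicate 2 none of the G1/S genes was called, and without Zn4 replicate 2, which left replicate 1 as the only Zn4 library, 1 rose and 9 fell. The G2/M calls were 4 higher without Zn4 replicate 1, 2 lower without Zn4 replicate 2 and 0 without WT replicate 1. Inhibitors of the cycle and p53 targets held 6 risers and 2 falls among 20 genes (median 0.22). The risers numbered 4 without the 12 h libraries and 7 with only the 24 h libraries, with 2 falls in both fits. When 1 library of 24 h was left out, the median of this list was 0.06 to 0.23. Gadd45b, a stress gene, had 307 and 170.1 RPKM in Zn4 cells and 14.0 and 13.7 RPKM in WT cells (3.95 ± 0.36, limma adjusted p = 1.3e-04), and Cdkn1a, the p21 inhibitor of cyclin-dependent kinases, had 204 and 139 RPKM in Zn4 cells and 43.1 and 43.9 RPKM in WT cells (1.93 ± 0.34, limma adjusted p = 0.0043). Of 23 survival and death genes 8 rose and 3 fell (median 0.29). Bcl2l1, the gene of the survival protein BCL-XL, had 105 and 85.7 RPKM in Zn4 cells and 36.3 and 39.6 RPKM in WT cells (1.30 ± 0.10, limma adjusted p = 6.4e-05), and Bcl2l11, the gene of its antagonist BIM, fell (-0.85, a call lost without WT replicate 2, limma adjusted p = 0.0509). The survival list had 5 risers without Zn4 replicate 1 and 4 without WT replicate 1 or WT replicate 2.

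Genes of the CD3 chains of the T cell receptor fell. Cd3g had 88.0 and 128 RPKM in Zn4 cells and 246 and 237 RPKM in WT cells (-1.18 ± 0.15, limma adjusted p = 6.5e-04). Cd3e had 109 and 138 RPKM in Zn4 cells and 245 and 239 RPKM in WT cells (-0.97 ± 0.12, limma adjusted p = 6.6e-04). Cd3d had 120.0 and 151 RPKM in Zn4 cells and 209 and 205 RPKM in WT cells (-0.62 ± 0.11, limma adjusted p = 0.0039). Every Zn4 library was lower than every WT library of these 3 genes. Cd247, the gene of the remaining chain, CD3 zeta, rose, with 46.4 and 32.3 RPKM in Zn4 cells and 14.8 and 14.6 RPKM in WT cells (1.34 ± 0.15, limma adjusted p = 4.1e-04). Prkcq, the kinase PKC theta that links the receptor to NF-kB, had 9.26 and 12.9 RPKM in Zn4 cells and 27.3 and 26.8 RPKM in WT cells (-1.23 ± 0.13, limma adjusted p = 3.3e-04). Of 32 receptor signalling genes 11 fell and 5 rose (median -0.20). Zap70 (-0.65), Cd28 (-0.98) and Plcg1 (-0.56) were among those that fell, and besides Cd247 the risers were the NF-kB genes Nfkbia (1.43), Nfkb2 (1.05), Rel (0.83) and Nfkb1 (0.70). The falls numbered 5 without Zn4 replicate 1, 4 without WT replicate 1 and 6 without WT replicate 2, and the rises numbered 3 without Zn4 replicate 1. Cd28, Plcg1 and Nfkb1 lost their calls without Zn4 replicate 1, WT replicate 1 or WT replicate 2 (limma adjusted p = 0.0828 to 0.128, 0.0895 to 0.1065 and 0.120 to 0.198), Zap70 without Zn4 replicate 1 (0.0560) or WT replicate 1 (0.0606) and Rel without Zn4 replicate 1 (0.0618). Cd8a changed by -0.39 (limma adjusted p = 0.061).

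Naive-state genes did not move together: 5 of 31 rose and 4 fell, with a median of 0.08. Tsc22d3, the glucocorticoid-induced leucine zipper gene, had 18.2 and 7.26 RPKM in Zn4 cells and 1.79 and 1.37 RPKM in WT cells (2.29 ± 0.33, limma adjusted p = 0.0015), and Il7r (1.28) and Klf2 (1.17) rose as well. Tcf7 (0.16) and Lef1 (-0.09), transcription factors of naive and memory cells, did not pass the test. The rises numbered 3 without Zn4 replicate 1 and 2 without WT replicate 2, where Il7r (limma adjusted p = 0.0829 and 0.0813) and Klf2 (0.0848 and 0.0974) were not called. Inhibitory receptors and ligands were split, with 4 of 16 higher and 4 lower (median 0.16). Lilrb4, an inhibitory receptor of the immunoglobulin family, had 23.1 and 19.3 RPKM in Zn4 cells and 1.69 and 2.25 RPKM in WT cells (2.91 ± 0.18, limma adjusted p = 1.7e-05), and it was higher at 0 h too (3.28). Nt5e, the ectoenzyme CD73, had 0.687 and 1.21 RPKM in Zn4 cells and 3.84 and 4.19 RPKM in WT cells (-1.38 ± 0.16, limma adjusted p = 4.7e-04). Pdcd1 (0.16), Lag3 (0.45) and Ctla4 (-0.89) did not pass the test. The falls in this list numbered 2 without Zn4 replicate 1, WT replicate 1 or WT replicate 2.

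Interferon-stimulated genes were lower for 7 of 36 members and higher for 4 (median -0.09), while Ifng itself was higher. Of the guanylate-binding GTPase genes, Gbp2 had 80.5 and 112 RPKM in Zn4 cells and 279.8 and 283 RPKM in WT cells (-1.56 ± 0.25, limma adjusted p = 0.0025), and Gbp4 had 11.03 and 19.5 RPKM in Zn4 cells and 54.4 and 52.99 RPKM in WT cells (-1.80 ± 0.23, limma adjusted p = 7.2e-04). Gbp7 (-1.03), Gbp3 (-0.75) and Gbp5 (-0.69) fell too. Guanylate-binding proteins are alike in sequence, so reads could be split between them. In the opposite direction Ifih1, the sensor MDA5 of viral RNA, had 8.19 and 15.5 RPKM in Zn4 cells and 1.23 and 1.48 RPKM in WT cells (2.39 ± 0.25, limma adjusted p = 2.6e-04). Without Zn4 replicate 1 the counts were 3 lower and 1 higher, without WT replicate 1 they were 3 and 1, and without WT replicate 2 they were 3 and 2. Gbp3 and Gbp5 were not called without any of these 3 libraries in turn (limma adjusted p = 0.170 to 0.327 and 0.0628 to 0.0817). Before stimulation the same list had 1 lower and 6 higher members (1.96% and 3.76% of all genes). For 9 of the 36 the 24 h difference was below the 0 h difference by the interaction test (4.35% of all genes).

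Within the Ikaros family Ikzf4, the gene of Eos, rose, with 6.63 and 5.48 RPKM in Zn4 cells and 2.64 and 2.32 RPKM in WT cells (1.02 ± 0.14, limma adjusted p = 0.0011). Ikzf2 (Helios, 1.08), Ikzf3 (Aiolos, 0.70) and Ikzf5 (0.46) were called with all libraries, and each lost its call without WT replicate 1 (limma adjusted p = 0.136, 0.0691 and 0.205) or WT replicate 2 (0.0948, 0.133 and 0.157), Ikzf2 and Ikzf5 also without Zn4 replicate 1 (0.184 and 0.279) and Ikzf3 without Zn4 replicate 2 (0.0978). Chd3, a helicase subunit of NuRD, had 19.2 and 23.6 RPKM in Zn4 cells and 43.7 and 43.9 RPKM in WT cells (-1.01 ± 0.11, limma adjusted p = 3.5e-04), whereas Chd4, its close relative, changed by -0.17 and did not pass the test. Of 20 Ikaros family and NuRD genes 4 rose and 3 fell (median -0.09). The rises numbered 2 without Zn4 replicate 1 and 1 without WT replicate 1 or WT replicate 2, and the falls numbered 1 without any of these 3 libraries in turn. Of 8 tested Notch pathway genes 1 rose, 1 fell and the median was 0.01, and without WT replicate 2 none was called, without Zn4 replicate 1 only the rise was, and without Zn4 replicate 2 the rises numbered 3.

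Genes outside these lists filled much of the top of the ranking. Cacnb3, a beta subunit of voltage-gated calcium channels, had 91.5 and 24.9 RPKM in Zn4 cells and 0.462 and 0.577 RPKM in WT cells (5.01 ± 0.45, limma adjusted p = 1.2e-04). Ifitm3, which restricts virus entry, had 37.6 and 42.2 RPKM in Zn4 cells and 1.22 and 0.729 RPKM in WT cells (4.38 ± 0.20, limma adjusted p = 4.0e-06), in a family of similar genes. Mmp14, a membrane-bound matrix metalloproteinase, had 30.7 and 20.7 RPKM in Zn4 cells and 0.524 and 0.435 RPKM in WT cells (4.15 ± 0.23, limma adjusted p = 1.1e-05). These are genes of a channel, of antiviral defence and of matrix turnover, and none of their Zn4 libraries approached the WT level. Ier3, an immediate early gene, had 78.3 and 51.6 RPKM in Zn4 cells and 1.93 and 2.18 RPKM in WT cells (4.40 ± 0.32), and Sdc4, the proteoglycan syndecan-4, had 35.0 and 21.5 RPKM in Zn4 cells and 0.615 and 0.873 RPKM in WT cells (4.03 ± 0.31). Tmem176b, a membrane protein gene, had 15.4 and 21.5 RPKM in Zn4 cells and 0.422 and 0.224 RPKM in WT cells (3.86 ± 0.17) and was higher at 0 h as well (4.41 ± 0.17).

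On the log2(RPKM + 1) scale the largest falls were smaller in size than the largest rises, and they included metabolic, membrane and immune genes. Ephx1, the microsomal epoxide hydrolase, had 2.86 and 6.99 RPKM in Zn4 cells and 35.9 and 35.3 RPKM in WT cells (-2.72 ± 0.28, limma adjusted p = 2.7e-04). Itm2a, a membrane protein of activated T cells, had 27.9 and 44.5 RPKM in Zn4 cells and 177 and 178 RPKM in WT cells (-2.30 ± 0.19, limma adjusted p = 8.8e-05). Folr4, which encodes folate receptor 4, had 4.78 and 10.9 RPKM in Zn4 cells and 42.4 and 44.1 RPKM in WT cells (-2.41 ± 0.28, limma adjusted p = 5.0e-04). In each of them replicate 1 was the lower Zn4 library and both were below WT. Gimap3, a GTPase of the GIMAP family of lymphocytes, had 24.9 and 39.5 RPKM in Zn4 cells and 138 and 141 RPKM in WT cells (-2.12 ± 0.19, limma adjusted p = 1.1e-04). Pyhin1, of the interferon-inducible PYHIN family, had 1.03 and 1.79 RPKM in Zn4 cells and 12.9 and 14.2 RPKM in WT cells (-2.61 ± 0.18, limma adjusted p = 2.8e-05). Sntb1, a syntrophin, had 0.613 and 1.06 RPKM in Zn4 cells and 6.85 and 7.87 RPKM in WT cells (-2.19 ± 0.13), and Pacsin1, an endocytosis protein, had 1.90 and 3.31 RPKM in Zn4 cells and 15.5 and 16.1 RPKM in WT cells (-2.25 ± 0.20). Gm1966 (-2.95), BC094916 (-2.89), RP23-307A6.1 (-2.19) and Gm4955 (-2.06) complete the falls that kept their call in every alternative, and Gm1966, BC094916, Gm4955, Gimap3 and Pyhin1 have similar copies, so their reads are uncertain. The other 4 of the 15 lost their call in at least 1 alternative: Plac8 (-2.23) without WT replicate 1 (limma adjusted p = 0.0754), WT replicate 2 (0.0853) or Zn4 replicate 1 (0.102), the pseudogene Gm9844 (-2.47) and the joining segment Ighj2 (-2.14) without each of the same 3 libraries (0.150, 0.166 and 0.207 for Gm9844, 0.164, 0.129 and 0.243 for Ighj2), and Ighj1 (-2.91) with a pseudocount of 0.1 (0.0505).

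The 2 Zn4 libraries differed in how far they had moved from WT. Among the 431 genes at least 2-fold higher, replicate 1 lay farther from the WT mean than replicate 2 in 332 (77.0%), with medians of 1.72 and 1.35. Among the 218 genes at least 2-fold lower it lay farther in 194 (89.0%), with medians of -1.44 and -1.10. Among the genes that ran the other way, with replicate 2 the higher library, were Ifng, Ccl1, Ccl3, Ccl9, Lta, Fasl, Cxcr3, Cth, Socs2, Ifitm3 and Tmem176b. What sets the libraries apart is not given by the labels and was not tested.

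**Figure D4:**
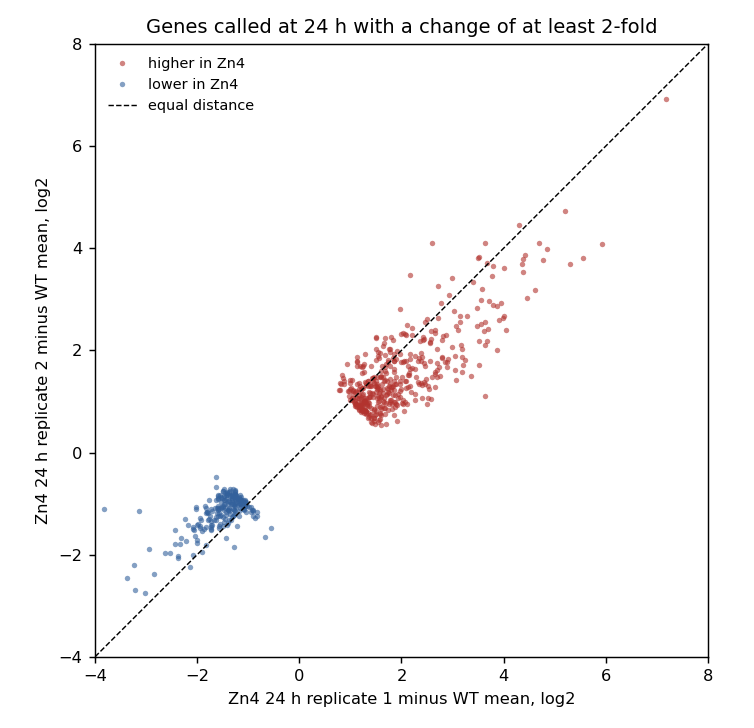
Distance from the WT mean in Zn4 replicate 1 (horizontal axis) and Zn4 replicate 2 (vertical axis), on the log2(RPKM + 1) scale, for the 649 called genes with a change of at least 2-fold at 24 h. Red points are genes higher in Zn4 cells and blue points genes lower, and on the dashed line the distances are equal. Points lie below the line for 332 of 431 higher genes and above it for 194 of 218 lower genes.

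The 24 h differences were set against those of the earlier times, which use other libraries. At 0 h 728 genes (5.72%) were called, 479 higher (3.76%) and 249 lower (1.96%), and at 12 h 1671 (13.1%), 617 higher (4.85%) and 1054 lower (8.28%). Of the 1196 genes higher at 24 h, 231 (19.3%) were also higher at 0 h, which is 48.2% of the genes higher at that time, and 432 (36.1%) were also higher at 12 h, which is 70.0% of that list. The remaining genes include 659 (55.1%) that were called at neither earlier time. Of the 1268 genes lower at 24 h, 97 (7.65%) were also lower at 0 h and 646 (51.0%) at 12 h, which is 39.0% and 61.3% of those lists, and 587 (46.3%) were called at neither. A call at 24 h and none at 0 h does not show that the differences differ, so the genotype by time interaction was tested. The 24 h difference was above the 0 h difference in 494 genes (3.88%) and below it in 554 (4.35%), and it was above the 12 h difference in 83 genes (0.652%) and below it in 17 (0.134%). The comparison with 12 h rests on libraries that carry Y-linked transcripts against their label, and its count of 100 (0.786%) became 450 without Zn4 replicate 2 of 24 h, 63 when Zn4 replicate 1 of 24 h was left out, 4 when WT replicate 1 of 24 h was and 3 when WT replicate 2 of 24 h was. Leaving out a 12 h library gave 7 for Zn4 replicate 1, 21 for Zn4 replicate 2, 18 for WT replicate 1 and 1 for WT replicate 2. The count against 0 h, 1048 genes (8.24%), became 550 with the 12 h libraries left out, 566 when Zn4 replicate 1 of 24 h was left out, 340 when WT replicate 1 of 24 h was, 325 when WT replicate 2 of 24 h was and 677 when Zn4 replicate 2 of 0 h was.

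Il3 and Ifng differed by much at 12 h already. The Il3 difference was 7.11 ± 0.20 at 12 h, with means of 174 RPKM in Zn4 and 0.232 RPKM in WT, and that of Ifng was 5.22, with means of 472 RPKM in Zn4 and 11.5 RPKM in WT. Csf2 went on: its difference was 1.71 ± 0.28 at 12 h and 4.96 ± 0.28 at 24 h, an excess of 3.25 (limma interaction adjusted p = 0.0244). Ifitm3 (excess over 12 h 2.82, adjusted p = 0.00807) and Lmna (4.38, adjusted p = 0.0343) also had a limma interaction with 12 h. When each of the 8 libraries of 12 h and 24 h was left out in turn, the interaction was called in 6 of the 8 fits for Ifitm3 (adjusted p up to 0.0572), in 4 for Csf2 (up to 0.148) and in 2 for Lmna (up to 0.154), those without a Zn4 library of 24 h. With a pseudocount of 0.1 none of the 3 was called (adjusted p = 0.190 for Csf2, 0.105 for Ifitm3 and 0.0644 for Lmna). In WT cells Lmna was at 6.23 RPKM at 0 h, 0.0960 RPKM at 12 h and 0.300 RPKM at 24 h, and in Zn4 cells at 14.05, 0.356 and 38.6 RPKM. Other large differences were in place before stimulation: Mmp14 was higher in Zn4 cells by 3.48 at 0 h, Tnfsf11 by 3.43, Cacnb3 by 2.95 and Lgals3 by 2.61. Of 14 of the 15 largest rises 7 were called higher at 0 h and 13 at 12 h (3.76% and 4.85% of all genes). Of the 15 largest falls 6 were called lower at 0 h and 11 at 12 h (1.96% and 8.28% of all genes). These genes were picked for their size at 24 h, so the counts describe the picked genes only. Eomes and Ephx1 differed in the same direction at all 3 times, with 1.77, 2.03 and 3.10 for Eomes and -1.29, -2.42 and -2.72 for Ephx1 at 0, 12 and 24 h.

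**Figure D5:**
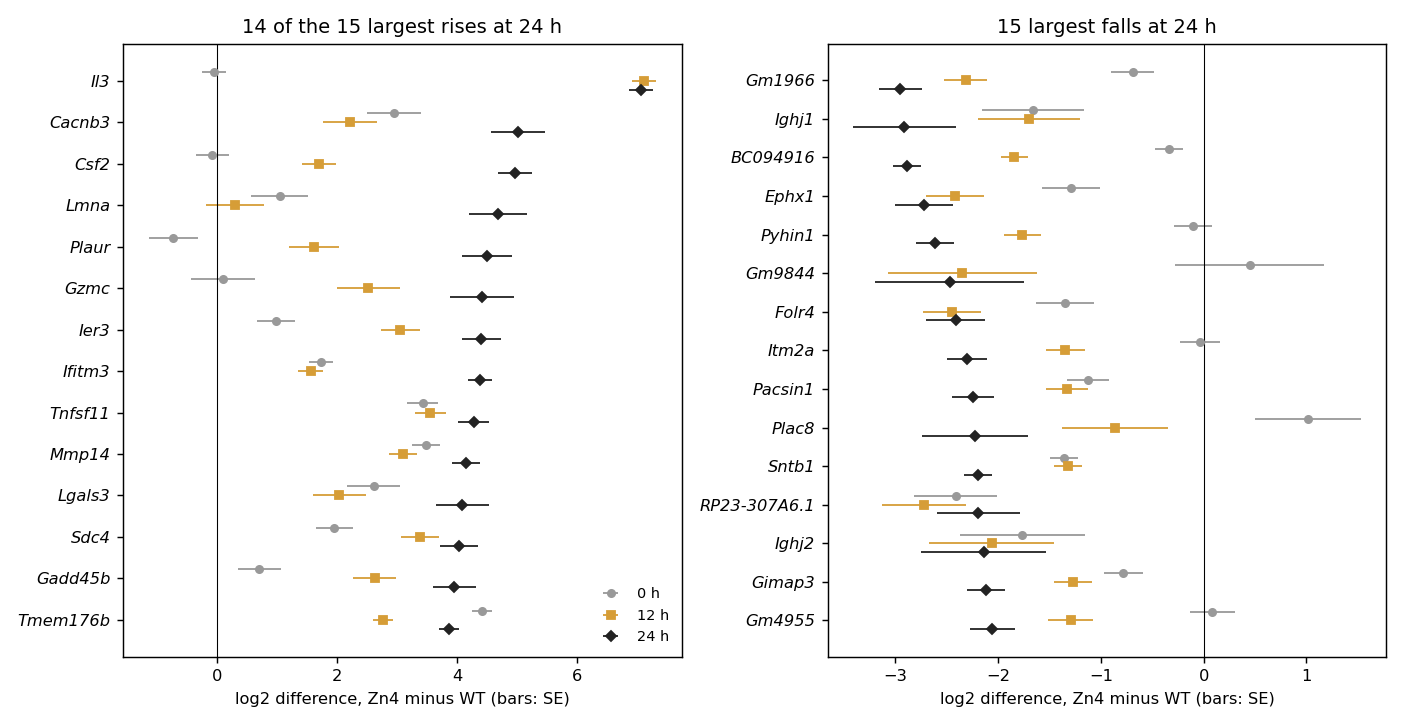
Zn4 minus WT difference (horizontal axis, log2(RPKM + 1) scale, bars are SE) at 0 h (circles), 12 h (squares) and 24 h (diamonds) for 14 of the 15 largest rises (left) and the 15 largest falls (right) at 24 h. For Il3 the 12 h and 24 h points are both near 7 and the 0 h point is near 0, while for Lmna the 24 h point stands apart from both earlier times.

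Genes were also grouped by the response of WT cells from 0 to 12 h, which uses no library of 24 h. Of 2668 genes raised at least 2-fold in WT by 12 h, 229 (8.58%) were higher in Zn4 cells at 24 h and 231 (8.66%) lower. Of 1501 genes lowered at least 2-fold, 182 (12.1%) were higher and 227 (15.1%) lower, and of the other 8557 genes 785 (9.17%) were higher and 810 (9.47%) lower. The median changes in the 3 classes were -0.05, -0.04 and -0.01.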

How the data were processed

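RNA was sequenced in 12 libraries (6 groups of 2) from stranded, single-end mRNA preparations, per the labels' protocols. The deposited table gives RPKM values that the authors made with TopHat2 2.0.12 and HTSeq 0.6.1 on mm10 (GRCm38), per the submitters' processing notes. The strand setting of the counting and the annotation are not given in the sources used here. The table has 12892 lines and 12885 symbols, the 7 repeated symbols hold equal values, and every listed gene reaches 1.00 RPKM in the mean of some group. At their GENCODE M21 exon length, 7159 of the 12885 genes had values that were whole multiples of 1 read (tolerance 0.02 reads). For the others the shortest length that made the values whole was taken, so their whole reads are fitted and not a check. Library totals, worked out from the steps at exon lengths, were 24263907 to 33389808 reads. At these depths 3 reads in 2 kb are 0.0449 to 0.0618 RPKM.

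Genes that reached 1 RPKM in 2 or more libraries were tested, and log2(RPKM + 1) was fitted in limma 3.58.1 (R 4.3.3) with a mean for each of the 6 groups, all 12 libraries (6 residual degrees of freedom) and a trended prior. Zn4 was compared with WT at each time, and the 24 h difference with the earlier ones as an interaction. P-values were adjusted by Benjamini-Hochberg over all 12726 tested genes and called under 0.05. The fit was also run on simulated data with the same noise in every library, unlike the 24 h groups, whose spread differed. No result given here rests on that run. Named genes are 5 markers of the comparison (Il3, Csf2, Gzmb, Eomes and Ephx1), the 15 genes that rose most and the 15 that fell most, all called and with separate groups, up to 4 called members of each list and the Ikaros family. Other list members are named as examples, chosen after their values were seen, and the Y-linked genes were summed and not named. A few genes that enter the counts are not reported here by name. The members and lists were chosen with earlier results of these data known. The replicate numbers were not used as a block, because deviations from the group means of same-numbered libraries correlated at 0.04 at 24 h (0.61 at 0 h, 0.19 at 12 h).

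Results were recomputed with quantile normalization, a smaller pseudocount (0.1), a stricter filter (5 RPKM) or none, median-ratio scaling, robust empirical Bayes, limma-voom on the recovered reads, replicate blocks, fits of fewer libraries and each library left out in turn.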

Additional observations from a re-analysis of the deposited data

Results flagged for a closer look

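The genes below, all among the 5 markers or the 15 largest rises and 15 largest falls at 24 h, had a Zn4 minus WT difference at 24 h that was not that of an earlier time, by the genotype by time interaction in limma (log2(RPKM + 1) scale, adjusted over all tested genes). Of the 31 such genes reported here 19 differed from 0 h and 4 from 12 h, where 8.24% and 0.786% of all tested genes did. Because the genes were picked for their size at 24 h, these shares describe the picked genes and support nothing further.

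Among the rises, the 24 h difference exceeded that of 0 h by 7.10 for Il3, 5.22 for Plaur, 5.03 for Csf2, 4.31 for Gzmc, 3.63 for Lmna, 3.42 for Ier3, 3.28 for Gzmb, 3.24 for Gadd45b, 2.65 for Ifitm3 and 2.07 for Sdc4. Over 12 h it was in excess by 4.38 for Lmna, 3.25 for Csf2 and 2.82 for Ifitm3. The Il3 difference was 7.11 at 12 h and 7.05 at 24 h.

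Among the falls, the 24 h difference was below that of 0 h, by values of -3.24 for Plac8, -2.55 for BC094916, -2.51 for Pyhin1, -2.27 for Itm2a, -2.26 for Gm1966, -2.14 for Gm4955, -1.34 for Gimap3, -1.12 for Pacsin1 and -0.84 for Sntb1. BC094916 was also below its 12 h difference, by a value of -1.05, a call that was kept in 1 of 8 fits with a library of 12 h or 24 h left out (limma adjusted p up to 0.216) and lost with a pseudocount of 0.1 (0.153). The comparison with 12 h uses libraries that hold Y-linked transcripts against their label, and of its rises Lmna kept the call in 2 of 8 fits with 1 library left out, Csf2 in 4 and Ifitm3 in 6, and none of these was called with a pseudocount of 0.1. The part of that in these values was not tested.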

How the results depend on the processing

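In the 24 h comparison no alternative called a gene in the direction opposite to the reported one, and of 122 named genes that were called 90 kept their call in every alternative that tested them (87 in 15 and 3, Cd101, Chac1 and Socs2, in 14, as the 5 RPKM filter removed them) and 32 lost it in at least 1. The count of 2464 became 3794 with the replicate block set separately at each time (1814 higher and 1980 lower), 2531 with a shared replicate block and 2610 with limma-voom on recovered reads. The labels give the samples only a shared number. Same-numbered Zn4 and WT libraries deviated together at 0 h (correlation 0.61) and less at 12 h (0.19), but not at 24 h (0.04), and the counts at 0 h and against 0 h are given here with and without the block. Leaving out 1 library gave 1061 to 2591 calls, 576 to 1226 higher and 485 to 1365 lower. Genes changed at least 2-fold numbered 982 with a pseudocount of 0.1 and 1040 with limma-voom, against 649. At 0 h the count of 728 became 455 without the 12 h libraries, 112 with only the libraries of the comparison, 1343 with the block by time and 437 to 607 without 1 library. At 12 h the count of 1671 became 2644 with that block and 743 to 1105 without 1 library. The 24 h against 0 h interaction gave 550 genes without the 12 h libraries and 550 with only its own libraries, 2029 with the block by time and 325 to 1524 without 1 library, against 1048. The 24 h against 12 h interaction gave, against 100 genes, 52 with quantile normalization, 49 with a replicate block, 216 with the block by time, 43 with limma-voom, 10 with only its own libraries, 1 to 450 without 1 library and 0 with a pseudocount of 0.1 in limma, where 1407 genes had an unadjusted p under 0.05 (1505 in the reported fit). Where a fit left 1 library in a group, that library is assumed to vary like the others. The cause of these changes was not tested. Below about 1 RPKM the log2(RPKM + 1) scale compresses changes.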

Other observations

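Some families outside the lists moved as groups at 24 h. They were put together after their values had been seen, so they are descriptions without a test of the group. All 8 tested GIMAP genes fell, where 9.96% of all genes did. They encode GTPases of lymphocyte survival and sit together on chromosome 6. Their median change was -0.94, between -2.12 (Gimap3) and -0.67 (Gimap5, limma adjusted p = 0.0477). Gimap4 had 44.4 and 69.3 RPKM in Zn4 cells and 153 and 162 RPKM in WT cells (-1.49 ± 0.18), and Gimap7 had 2.55 and 3.15 RPKM in Zn4 cells and 10.1 and 11.5 RPKM in WT cells (-1.62 ± 0.15). At 12 h 7 of the 8 were already lower (8.28% of all genes), and at 0 h 2 were (1.96% of all genes). Of 6 tested PYHIN genes, whose products bind nucleic acids or respond to interferon, 5 fell, with a median of -1.63. Mndal had 5.03 and 7.75 RPKM in Zn4 cells and 15.3 and 16.2 RPKM in WT cells (-1.21 ± 0.15), whereas Aim2, the DNA sensor of the inflammasome, had 7.54 and 10.1 RPKM in Zn4 cells and 6.16 and 7.44 RPKM in WT cells (0.33 ± 0.18, not called). None of the PYHIN genes was called lower at 0 h by limma (1.96% of all genes), and 4 were at 12 h (8.28%). The members of both families are alike in sequence, so reads could be split between them.

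Genes of growth factors, a hormone precursor and stress proteins were among the rises. Hbegf, an EGF family growth factor, had 24.6 and 30.6 RPKM in Zn4 cells and 1.16 and 1.35 RPKM in WT cells (3.66 ± 0.13). Axl, a receptor tyrosine kinase, had 56.7 and 54.3 RPKM in Zn4 cells and 4.68 and 4.33 RPKM in WT cells (3.36 ± 0.13). Il23a, a chain of interleukin-23, had 17.1 and 6.21 RPKM in Zn4 cells and 0.121 and 0.130 RPKM in WT cells (3.34 ± 0.32). Penk, the precursor of enkephalins, had 16.9 and 10.4 RPKM in Zn4 cells and 0.479 and 0.734 RPKM in WT cells (3.16 ± 0.22), and the metallothionein gene Mt2 had 30.1 and 24.0 RPKM in Zn4 cells and 0.964 and 1.65 RPKM in WT cells (3.61 ± 0.40). The groups of these genes did not overlap.

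In the immunoglobulin heavy chain locus 3 of 5 tested genes were lower in Zn4 cells and 0 higher (9.96% and 9.4% of all genes). Ighj3 had 0.814 and 2.50 RPKM in Zn4 cells and 5.15 and 11.03 RPKM in WT cells (-1.77 ± 0.35), and Ighm had 97.2 and 161 RPKM in Zn4 cells and 243 and 240.5 RPKM in WT cells (-0.94 ± 0.30, limma adjusted p = 0.057). Joining segments are short, so each value rests on few reads.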
